A study of Mus musculus with 9 samples.

Results

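The comparison concerned mouse knee chondrocytes on a stiff against a soft extracellular matrix (ECM), read only from array probes bright enough to lie well clear of the dim end of the array. The arrays were single-colour mouse OneArrays with a fluorescent Cy5 label. Of 9 samples, the 3 on stiff ECM and the 3 on soft ECM entered the comparison, and the other 3, labelled normal, contributed to the spread and to the normalisation. A probe was kept when its intensity was above 0 in all 9 samples and its mean log2 intensity over them was 8.3 or more, an intensity of about 315. Of 26423 probes, 24942 were above 0 in every sample and 10473 of these (42.0%) were bright. The dimmest probe kept had a mean of 8.301 and the brightest probe left out 8.2997. The bright probes covered 9114 of the 18295 genes with a probe above 0 in every sample, and 567 of them had no gene symbol.

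The cells came from articular cartilage of newborn Kunming mice, an outbred stock, and were released with collagenase and grown as a monolayer in serum. The stiff ECM was a polyacrylamide gel of 100 kPa and the soft ECM a gel of 500 Pa, and both carried a coat of type I collagen. The labels give 24 h on the gels, while the study's own legends give a longer time for this experiment. No source used here says what the normal samples were grown on. Whether each sample was its own culture or set of animals is not said, so the p-values measure only the spread between these samples, which may be technical.

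Chondrocytes are the only resident cells of articular cartilage, where they make type II collagen and the proteoglycan aggrecan. They hold the matrix through integrins, which connect to the actin cytoskeleton at focal adhesions, and a stiffer substrate lets cells build larger adhesions and more tension. YAP and TAZ, MRTF with SRF, and β-catenin are transcription regulators known to follow adhesion or tension. Primary digests of newborn joints can also carry cells of the tissue next to the cartilage.

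Among the 10473 bright probes, 1216 (11.6%) differed between stiff and soft ECM at an adjusted p under 0.05. Of these, 589 (5.62%) were higher and 627 (5.99%) were lower on stiff ECM. Counted as genes by their brightest probe, 512 genes (5.62%) were higher and 555 (6.09%) lower. At an unadjusted p under 0.05 there were 3286 probes, and the 3 stiff and 3 soft samples did not overlap in 3661 probes (35%). They did not overlap in 1214 of the 1216 called probes, so a lack of overlap adds little to a call. Most changes were small. The median size of the log2 fold change of a called probe was 0.47, 147 called probes rose and 176 fell by 1.5-fold or more, and 12 rose and 21 fell by 2-fold or more, where a log2 value of 1 is a 2-fold change. The typical standard error was 0.11 on the log2 scale, and the middle 50% of all bright probes lay between -0.17 and 0.16.

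The even division into rises and falls belonged to the scaling. With the quantile-normalised values 48.4% of the called probes were higher, with the values as deposited 73.4% of 638 called probes were higher, and with each sample centred on its median over all probes only 6.51% of 2180 were. Cyclic loess gave 575 higher and 569 lower. Centring moved the median of the bright probes by -0.19, so under it a change is best read relative to that shift. The deposited medians over all probes were 171, 175 and 166 on the stiff ECM, 142, 137 and 150 on the soft ECM and 124, 153 and 179 in the normal samples. Within the bright probes the deposited values leaned most at the dim end, where the median log2 difference was 0.16 between 8.3 and 9 and -0.04 above 13.

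Brightness also set the precision. From 8.3 to 9 the median standard error was 0.13, and 63 probes rose and 141 fell (3.72% and 8.32% of 1695). Above 13 it was 0.09, and 79 rose and 64 fell (7.93% and 6.43% of 996). Fitted over all 24942 probes above 0 instead, the comparison called 1169 probes (4.69%), of which 788 were bright.

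**Figure D1:**
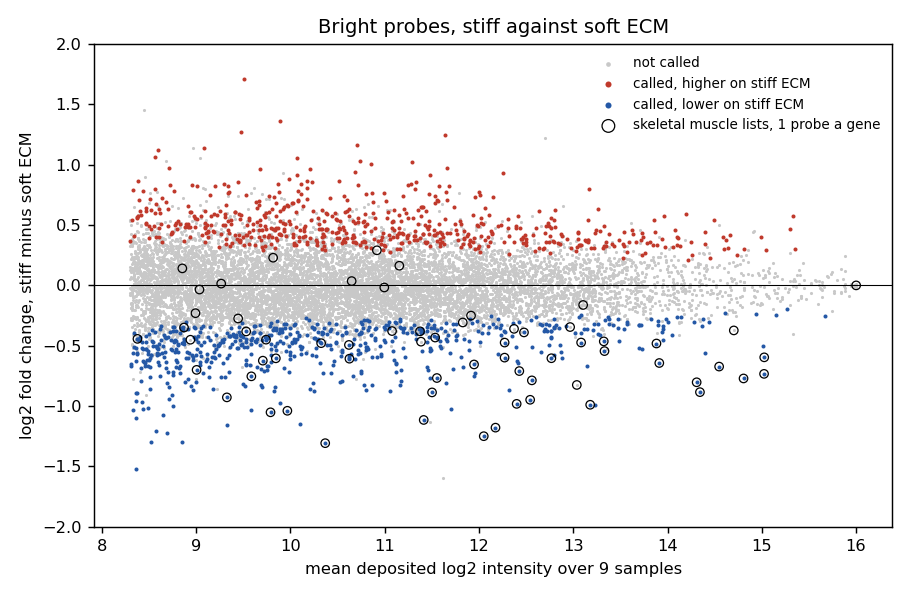
Log2 fold change, stiff minus soft ECM, against mean deposited log2 intensity over 9 samples for the 10473 bright probes. Called probes are coloured by direction, black circles mark the 64 bright genes of the muscle lists, most of which lie below 0, and 7 uncalled probes lie beyond the axis limits of -2 and 2.

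The calls, more than the fold changes, depended on single samples. Of 1216 called probes, 244 (89 higher and 155 lower) stayed called in the same direction with each of the 9 samples left out in turn. Without stiff sample 2 only 261 probes were called, and without soft sample 1 or soft sample 3 there were 635 and 637. Over bright probes, soft sample 3 correlated with stiff sample 1 at r = 0.985, above its correlation with soft sample 1 (0.982) and above that of stiff samples 1 and 3 (0.979). These samples share an array design and a probe set, so the r values are a description. With both soft sample 3 and stiff sample 1 left out, a choice made after the values were seen, 523 probes were called, 260 higher and 263 lower. Of the 112 called genes named by rule below, 48 kept their call with each sample left out, and 62 lost it without stiff sample 2. Their log2 fold changes moved less. With single samples left out, only those of Smc4, Ogn, Ptgs2 and Msmp changed by a factor above 1.5, and none did so without stiff sample 2. Of the same 112 genes, 72 stayed called with the values as deposited, 82 with median centring and 110 with loess, all in the same direction.

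Skeletal muscle genes were lower on the stiff ECM as a group. The lists held 81 genes for the sarcomere, for muscle calcium handling and energy supply, and for myogenic regulation. Of these, 64 were bright, 40 fell and none was called higher by limma, with 51 lower and 0 higher at an unadjusted p under 0.05. Of all bright genes 6.09% fell and 5.62% rose. The methods' t-test, which called 3 of all 10473 bright probes, called 2 of these genes, both lower. The median log2 fold change of the 64 genes was -0.49, against -0.02 over all bright genes. With each sample left out in turn the number that fell lay between 26, without stiff sample 2, and 37, and none was called higher. Under the values as deposited 32 fell, under loess 38 and under median centring 52. A digest of the joint can contain muscle cells, and in bulk RNA fewer cells of a type and less RNA per cell cannot be told apart.

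Of the sarcomere list, 35 of 42 genes were bright and 23 fell. Tcap, or telethonin, which caps titin at the Z-disc, had normalised log2 intensities of 9.37, 9.38 and 9.66 on the stiff ECM, against 10.89, 10.80 and 10.64 on the soft ECM. Csrp3, the muscle LIM protein of the Z-disc, had 11.37, 11.33 and 11.27 on the stiff ECM, against 12.58, 12.61 and 12.54 on the soft ECM. Ankrd2, a stretch-responsive ankyrin repeat protein of muscle, had 11.58, 11.57 and 11.38 on the stiff ECM, against 12.83, 12.68 and 12.55 on the soft ECM. These 3 genes were named among those whose gels did not overlap, and the gap between the gels was several times the spread within a gel. The log2 fold changes were -1.31 ± 0.13 (SE, adjusted p = 0.000813), -1.25 ± 0.08 (adjusted p = 0.000104) and -1.18 ± 0.11 (adjusted p = 0.000639). Myoz2, a calsarcin that anchors calcineurin at the Z-disc, had 10.81, 10.98 and 10.80 on the stiff ECM, against 12.17, 12.07 and 11.70 on the soft ECM and changed by -1.11 ± 0.15 (adjusted p = 0.00289). Tnnt1, slow skeletal troponin T, changed by -0.67 ± 0.06 (adjusted p = 0.000639), and its stiff samples were nearly equal at 14.14, 14.12 and 14.13. All 5 calls held with any single sample left out.

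Not every sarcomere gene moved. The fast myosin heavy chains Myh1 and Myh4 had log2 differences of 0.04 and 0.14 and overlapped between gels. Acta1, skeletal α-actin, had 14.44, 14.78 and 14.24 on the stiff ECM, against 14.90, 14.92 and 14.75 on the soft ECM, a difference of -0.37 ± 0.12 that missed the threshold (adjusted p = 0.0575). Desmin, the muscle intermediate filament, was in the same position with -0.35 ± 0.11 (adjusted p = 0.0613). Tnnt3, fast skeletal troponin T, and Actn2, sarcomeric α-actinin, fell (log2 fold changes -0.54 and -0.46), and the call of Tnnt3 was lost without stiff sample 2.

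Of the list of muscle calcium handling and energy genes, 17 of 22 were bright and 9 fell. Trim72, a membrane repair protein of muscle, had 9.28, 9.32 and 9.13 on the stiff ECM, against 10.23, 10.36 and 10.29 on the soft ECM (log2 fold change -1.05 ± 0.10, adjusted p = 0.000639). Ckm, the muscle creatine kinase, had 9.20, 9.17 and 9.29 on the stiff ECM, against 10.69, 10.11 and 9.98 on the soft ECM, and its stiff samples were closer to each other than its soft samples. Its log2 fold change was -1.04 ± 0.16 (adjusted p = 0.00466). Mb, myoglobin, and Cox6a2, the muscle form of a cytochrome c oxidase subunit, fell (log2 fold changes -0.77 and -0.95). These 4 calls also held with any sample left out.

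Of the myogenic regulators and satellite cell genes, 12 of 17 were bright, all 12 had a difference below 0 and 8 fell. Myf6 (MRF4), Myod1 and Myog are the transcription factors that commit and differentiate myoblasts. Myf6 averaged 8.53 ± 0.07 on the stiff ECM and 9.23 ± 0.10 on the soft ECM (SD, n = 3 each), Myod1 averaged 10.24 ± 0.03 on the stiff ECM and 10.84 ± 0.21 on the soft ECM, and Myog averaged 13.52 ± 0.22 on the stiff ECM and 14.00 ± 0.18 on the soft ECM. Cav3, the muscle caveolin, fell by 0.66. Cav3 and Myf6 kept their calls with any sample left out, Myod1 lost its call without stiff sample 2, and Myog lost it without any of 7 samples. The number of genes of this list that fell lay between 2 and 8 with single samples left out, and it was lowest without stiff sample 2. Myf5, Pax3 and Pax7, which mark muscle stem cells, were not bright.

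Against the normal samples, muscle genes were not uniform. The 9 bright muscle markers of a list of 10 had a mean normalised log2 intensity of 11.88, 11.88 and 11.74 on the stiff ECM, 12.36, 12.33 and 12.26 on the soft ECM and 12.31, 12.48 and 12.44 in the normal samples. Thus the markers as a group were lower on the stiff ECM than in both other groups, while soft and normal samples overlapped. Csrp3 had 12.10, 12.34 and 12.27 in the normal samples and Trim72 9.63, 9.84 and 9.91, between their levels on the gels. Tcap had 10.58, 11.05 and 10.84 and Ckm 10.20, 10.49 and 10.44, overlapping their levels on the soft ECM. Of the 10 chondrocyte markers, 7 were bright, and their mean was 9.70, 9.58 and 9.71 on the stiff ECM, 9.46, 9.86 and 9.67 on the soft ECM and 10.33, 10.21 and 10.14 in the normal samples. Matn1, Matn3 and Cnmd were the chondrocyte markers that were not bright. Of 7 fibroblast markers 6 were bright, with a mean of 14.39, 14.38 and 14.50 on the stiff ECM and 14.31, 14.49 and 14.41 on the soft ECM. Bright markers numbered 3 of 7 for macrophages, 2 of 5 for adipocytes, 2 of 4 for keratinocytes and 1 of 4 for osteoblasts. Cell shares were not estimated from these levels. None of the defining neutrophil (0 of 5), endothelial (0 of 5) or erythroid (0 of 4) markers was bright. Longer lists had 3 of 10 bright genes for neutrophils and 2 of 10 for endothelium.

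**Figure D2:**
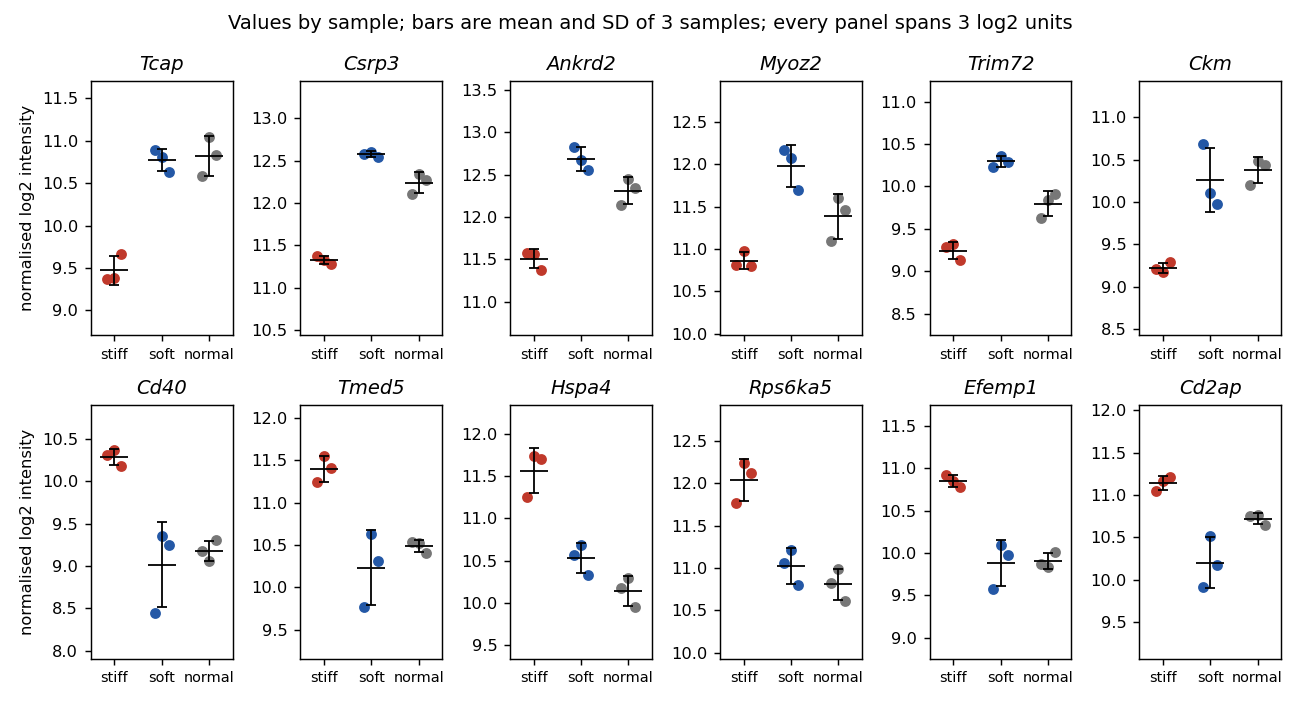
Normalised log2 intensity in each sample of 6 muscle genes that fell (upper row) and 6 genes that rose (lower row), with points for the 3 stiff, 3 soft and 3 normal samples and bars for mean and SD. The genes were chosen among called genes whose stiff and soft samples do not overlap, as for Csrp3 with 11.27 to 11.37 on the stiff ECM against 12.54 to 12.61 on the soft ECM.

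Because the muscle genes fell together, their promoters were read for short binding sites known from muscle. The window was the 250 bases before the start of the gene in the RefSeq table of build GRCm38.p6, and both strands were searched. Of 40 muscle genes that fell, 29 had such a window. The E-box core CAGCTG, a palindrome that MyoD-family factors bind, was in 9 of 29 windows (31.0%), against 11.5% of the 7410 bright genes with a window and 12.8% of all 27025 windows. The TATAAA sequence was in 6 (20.7%), against 6.60% and 13.0%. The TEAD core CATTCC was also in 6 (20.7%), against 10.6% and 12.6%. A CArG box, the SRF site, and a MEF2 box were each in 2 windows (6.90%), against 1.20% and 1.40% for the CArG box and 1.55% and 3.01% for the MEF2 box. The letters TATAAA can lie inside a MEF2 box, while the sites printed here do not overlap one another. These are counts of letters and not of bound sites. Bright muscle genes that did not fall were not counted apart, so whether these shares belong to the fall or to muscle genes in general was not tested. The windows of 5 muscle genes that fell by 2-fold or more are shown, 5′ to 3′ on the strand of the gene, with the matched sites in capitals. Those of Csrp3 (chr7:48848052-48848301, minus strand) and Trim72 (chr7:128004128-128004377, plus strand) hold none of the motifs searched. Csrp3 had 2 windows in the RefSeq table, and only the first listed was searched and is shown. Ankrd2 (chr19:42035777-42036026, plus strand) has TATAAA at -29 to -24 from the start, Myoz2 (chr3:123034988-123035237, minus strand) has CAGCTG at -12 to -7 and a MEF2 box at -33 to -24, and Ckm (chr7:19410844-19411093, plus strand) has CAGCTG at -249 to -244.
Csrp3: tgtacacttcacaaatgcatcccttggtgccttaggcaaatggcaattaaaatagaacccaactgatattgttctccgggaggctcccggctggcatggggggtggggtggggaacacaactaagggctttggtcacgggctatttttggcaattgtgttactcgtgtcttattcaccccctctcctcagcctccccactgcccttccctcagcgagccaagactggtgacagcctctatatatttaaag
Ankrd2: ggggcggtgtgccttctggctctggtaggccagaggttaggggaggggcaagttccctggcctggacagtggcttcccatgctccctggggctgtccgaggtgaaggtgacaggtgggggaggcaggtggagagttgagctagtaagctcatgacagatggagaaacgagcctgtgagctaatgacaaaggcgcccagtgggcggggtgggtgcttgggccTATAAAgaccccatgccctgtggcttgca
Myoz2: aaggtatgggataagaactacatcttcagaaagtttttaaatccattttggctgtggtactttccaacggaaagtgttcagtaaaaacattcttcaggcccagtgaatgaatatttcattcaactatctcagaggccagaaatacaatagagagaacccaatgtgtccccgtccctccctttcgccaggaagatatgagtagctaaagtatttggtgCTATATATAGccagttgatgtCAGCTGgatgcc
Trim72: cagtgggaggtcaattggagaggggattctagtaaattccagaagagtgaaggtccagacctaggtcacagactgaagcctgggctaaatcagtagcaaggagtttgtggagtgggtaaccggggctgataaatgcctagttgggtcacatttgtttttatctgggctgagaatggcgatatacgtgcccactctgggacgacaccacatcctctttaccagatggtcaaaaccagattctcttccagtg
Ckm: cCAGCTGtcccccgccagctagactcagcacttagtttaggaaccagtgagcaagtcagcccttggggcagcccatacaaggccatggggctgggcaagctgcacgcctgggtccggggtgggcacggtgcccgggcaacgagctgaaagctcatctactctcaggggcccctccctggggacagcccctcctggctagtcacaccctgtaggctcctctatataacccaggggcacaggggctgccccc

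Outside the muscle lists, the largest falls included 2 further muscle genes by name, Hspb3, a small heat shock protein of muscle, at -1.16 ± 0.10, and Trim54, a muscle ubiquitin ligase, at -1.03 ± 0.10. Camp, the cathelicidin antimicrobial peptide of neutrophils, fell by 1.30, with 7.61, 7.60 and 7.85 on the stiff ECM, against 8.91, 9.17 and 8.88 on the soft ECM. It was the single called gene of 3 bright neutrophil genes of 10 listed. Rasl11b, a Ras-like GTPase, fell by 1.30, and Tac1, the precursor of substance P, by 1.10. Tcp11x2, Frmpd1 and Msmp fell (log2 fold changes -1.07, -1.03 and -1.22). Msmp rested on stiff sample 3, without which its log2 fold change was -0.81 (adjusted p = 0.0498), and its call was lost without any of 4 other samples. The remaining calls in this group held with any sample left out.

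The largest rises belonged to no single pathway. Cd40, a receptor of the TNF receptor family on antigen-presenting and stromal cells, had 10.31, 10.37 and 10.18 on the stiff ECM, against 8.44, 9.35 and 9.25 on the soft ECM. Its gels did not overlap, as the choice of the largest rises required, and soft sample 1 was the lowest (log2 fold change 1.27 ± 0.20, adjusted p = 0.00478). Tmed5, a p24 protein of traffic between ER and Golgi, had 11.24, 11.55 and 11.41 on the stiff ECM, against 9.76, 10.63 and 10.31 on the soft ECM (1.16 ± 0.18, adjusted p = 0.00458). Efemp1, the matrix glycoprotein fibulin-3, had 10.92, 10.85 and 10.78 on the stiff ECM, against 9.58, 10.10 and 9.98 on the soft ECM (0.97 ± 0.13, adjusted p = 0.00285). In these genes the normal samples lay near the soft samples, at a mean of 9.18 ± 0.12 (SD, n = 3) for Cd40 and at 9.87, 9.83 and 10.02 for Efemp1.

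Hspa4, a chaperone of the Hsp110 family, rose by 1.03 (adjusted p = 0.00336), and Rps6ka5, the kinase MSK1, by 1.02 (adjusted p = 0.00362). Cd2ap, an adaptor between membrane receptors and actin, rose by 0.94, with 11.05, 11.16 and 11.21 on the stiff ECM, against 9.92, 10.52 and 10.17 on the soft ECM. Hs6st2, which sulfates heparan sulfate, and Cnep1r1, a subunit of a nuclear envelope phosphatase, rose by 0.91 each. Krt19, a keratin of simple epithelia, rose by 1.14, but its normal samples, at 10.38, 9.53 and 9.31, were as high as or higher than the stiff samples. These genes and Cd40, Tmed5 and Efemp1 kept their calls with any sample left out.

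The other large rises were less secure. C8b, a chain of complement component 8, at 1.25 ± 0.26, and Zfp131, a zinc finger protein, at 0.97 ± 0.18, lost their calls without stiff sample 2. Lyz1, a lysozyme, at 1.01 ± 0.22, and Maob, monoamine oxidase B, at 0.88 ± 0.21, lost theirs without stiff sample 2, soft sample 1 or soft sample 3, and Maob also without stiff sample 3. Smc4, a condensin subunit, and Ogn, the small proteoglycan osteoglycin, rested on soft sample 1. Ogn had 12.81, 12.75 and 12.79 on the stiff ECM, against 11.00, 12.34 and 12.22 on the soft ECM, and without soft sample 1 its log2 fold change was 0.50 in place of 0.93. For Smc4 it was 0.57 in place of 0.97. Both calls held without that sample and were lost without any single stiff or normal sample.

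The genes of cell adhesion moved little as groups. Of the integrin chains, 10 of 18 listed were bright, 2 rose and 1 fell. Itgav, the αv chain of vitronectin receptors, had 14.38, 14.53 and 14.20 on the stiff ECM, against 13.77, 13.90 and 14.06 on the soft ECM (0.46 ± 0.10, adjusted p = 0.0161). Itga5, the α5 chain of the fibronectin receptor, had 11.26, 11.47 and 11.32 on the stiff ECM, against 11.14, 10.95 and 10.73 on the soft ECM (0.41 ± 0.11, adjusted p = 0.0409), and its normal samples at 11.62, 11.80 and 11.59 were above both. Itga9, the α9 chain, fell by 0.76. Itgb1, the β1 chain that the study blocked and silenced, had 14.56, 14.50 and 14.34 on the stiff ECM, against 14.13, 14.25 and 14.52 on the soft ECM, and the groups overlapped (0.17 ± 0.11, adjusted p = 0.311). All 3 calls were lost without stiff sample 2, and each also without 1 or more of the soft samples.

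Of 15 bright focal adhesion genes, 2 were called, both higher, and the list median was 0.09. They were Src, the kinase recruited to adhesions, at 0.47 ± 0.11, and Actn1, the non-muscle α-actinin that crosslinks stress fibres, at 0.33 ± 0.08. Ptk2, the gene of focal adhesion kinase, was not bright. Akt1 had a difference of 0.02 ± 0.10 (adjusted p = 0.911). Of 21 bright genes of the non-muscle actin and myosin cytoskeleton, Rdx and Tpm1 rose and Myl12a fell. Rdx, or radixin, which ties actin to the membrane, had 11.86, 12.14 and 12.31 on the stiff ECM, against 11.35, 11.51 and 11.36 on the soft ECM (0.70 ± 0.11, adjusted p = 0.00540). Tpm1, a tropomyosin, rose by 0.36, and Myl12a, a regulatory light chain of non-muscle myosin, fell by 0.53. The calls of Rdx and Myl12a held with any sample left out, while those of Src, Actn1 and Tpm1 were lost without stiff sample 2. Of 10 bright SRF and MRTF target genes, Tpm1 rose and Smtn, or smoothelin, fell by 0.31.

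Among the YAP and TAZ targets the median was 0.28 over 14 bright genes of 15, against -0.02 over all bright genes. Of the 14, 4 rose and 1 fell, against 5.62% and 6.09% of all bright genes. Crim1, a transmembrane protein that binds BMPs, rose most, with 11.02, 11.34 and 11.01 on the stiff ECM, against 10.28, 10.40 and 10.19 on the soft ECM (0.83 ± 0.11, adjusted p = 0.00289). Ajuba, a LIM protein of adhesions and of the Hippo pathway, rose by 0.52. Ankrd1 is a widely used YAP target and also a stretch protein of striated muscle, and it went the other way, with 12.17, 12.14 and 11.76 on the stiff ECM, against 12.49, 12.59 and 12.51 on the soft ECM (-0.51 ± 0.11, adjusted p = 0.0177). Crim1 and Ankrd1 kept their calls with any sample left out. Ajuba lost its call without stiff sample 2, stiff sample 3, soft sample 1 or soft sample 3. The other rises were Ccn1, a secreted matrix protein, at 0.52 (adjusted p = 0.0356) and Tead1, the DNA-binding partner of YAP, at 0.30 (adjusted p = 0.0482). The number of targets that rose lay between 1 and 4 when a sample was left out, with 1 without soft sample 3 and 1 without stiff sample 2. The list median was 0.27 as deposited, 0.28 with loess and 0.02 with median centring, which was above the shift of all probes there.

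Genes of the cartilage matrix did not move as a group. Of 17 cartilage matrix proteins 9 were bright, 1 rose and 2 fell, and the list median was -0.03. Prg4, or lubricin, the lubricant made by the surface zone of cartilage and by the synovium, had 11.15, 10.97 and 10.79 on the stiff ECM, against 11.72, 12.16 and 12.10 on the soft ECM. The normal samples had 12.07, 12.08 and 12.22, near the soft ones, and the log2 fold change was -1.03 ± 0.13 (adjusted p = 0.00245), a call that held with any sample left out. Mia, a secreted cartilage protein, fell by 0.51 and Chad, or chondroadherin, rose by 0.36, each with its call lost when any of several samples was left out.

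The defining cartilage genes overlapped between gels. Col2a1, the type II collagen chain, had 11.95, 11.82 and 12.14 on the stiff ECM, against 11.79, 12.09 and 11.71 on the soft ECM, a difference of 0.11 ± 0.14 (adjusted p = 0.648). Acan, or aggrecan, had 9.69, 9.29 and 8.79 on the stiff ECM, against 9.04, 8.89 and 9.41 on the soft ECM (0.15 ± 0.29, adjusted p = 0.765), and Sox9, the master regulator of chondrocytes, differed by -0.12 ± 0.10 (adjusted p = 0.419). Both gels had less Col2a1 than the normal samples, which had 13.42, 13.17 and 12.88. Col9a1, a chain of the type IX collagen that coats type II fibrils, fell by 0.75 (adjusted p = 0.0125). Without stiff sample 2 the Col9a1 log2 fold change was -0.67 and missed the threshold (adjusted p = 0.0628). Of the 4 bright genes of hypertrophy, Panx3 rose by 0.51 and Pth1r, the receptor of parathyroid hormone-related protein, fell by 0.52.

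The fibroblast matrix list, 15 bright genes of 19, had a median of -0.03 and no call by limma, with 2 higher and 1 lower at an unadjusted p under 0.05. The methods' t-test also called none, but it called only 3 of all 10473 bright probes, so this adds little. Col1a2, a chain of type I collagen, had 13.98, 14.00 and 14.31 on the stiff ECM, against 14.09, 14.32 and 13.98 on the soft ECM, and Col1a1 was not bright. Fn1, or fibronectin, differed by 0.19 ± 0.06 (adjusted p = 0.0651). Of 18 bright genes for collagen processing 2 were called, both higher. Lox, the lysyl oxidase that crosslinks collagen, had 15.50, 15.53 and 15.37 on the stiff ECM, against 14.75, 15.11 and 15.12 on the soft ECM (0.47 ± 0.09, adjusted p = 0.0122), and Loxl4 of the same family rose by 0.44. Both calls were lost without stiff sample 2. Among 18 bright proteases and inhibitors, Timp3, a matrix-bound inhibitor of metalloproteinases, rose by 0.58, and Plaur, the urokinase receptor, by 0.33. The gelatinase gene Mmp2 fell by 0.50, with 14.96, 14.77 and 14.71 on the stiff ECM, against 15.24, 15.24 and 15.46 on the soft ECM, and Mmp11 fell by 0.51. These 4 calls were lost without stiff sample 2.

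Scx, or scleraxis, the transcription factor of tendon cells, fell by 0.45, with 11.17, 11.15 and 11.19 on the stiff ECM, against 11.67, 11.50 and 11.68 on the soft ECM. Its normal samples, at 12.08, 12.20 and 12.11, were above both gels. Among growth factor genes, Igfbp5, a binding protein of insulin-like growth factors, had 11.74, 11.89 and 11.92 on the stiff ECM, against 12.91, 12.59 and 12.65 on the soft ECM (-0.87 ± 0.14, adjusted p = 0.00521), Igfbp2 fell by 0.62 and Igfbp6 rose by 0.44. In the BMP and TGF-β list of 15 bright genes, Tgfbi and Tgfb3, both induced in TGF-β signalling, fell (log2 fold changes -0.53 and -0.33), and Id4 rose by 0.47. Scx, Igfbp5, Igfbp6 and Tgfbi kept their calls with any sample left out, while Igfbp2, Tgfb3 and Id4 did not.

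Wnt and β-catenin form the pathway that the study followed. Of 19 Wnt ligands, 4 were bright. Wnt1 had 8.35, 8.48 and 8.59 on the stiff ECM, against 8.22, 8.39 and 8.42 on the soft ECM, a difference of 0.13 ± 0.13 (adjusted p = 0.511), and lay close to the brightness minimum. Wnt5a, a ligand known mainly for signalling without β-catenin, fell, with 10.43, 10.42 and 10.47 on the stiff ECM, against 11.15, 10.82 and 11.04 on the soft ECM (-0.56 ± 0.10, adjusted p = 0.0102). Ror2, a receptor of Wnt5a, fell by 0.42 and was the single call among 8 bright Wnt receptors. Of 9 bright genes of the β-catenin complex, Apc2, a relative of the tumour suppressor APC, rose by 0.54, a call lost without any of 5 samples. Wnt3a and Gsk3b were not bright, and none of 5 bright secreted antagonists was called by limma, with 1 lower at an unadjusted p under 0.05. The methods' t-test called none of these antagonists, which adds little, as it called only 3 of all 10473 bright probes. Ctnnb1, the β-catenin gene, had 14.52, 14.48 and 14.54 on the stiff ECM, against 14.40, 14.38 and 14.33 on the soft ECM. All stiff samples were slightly higher, but the difference of 0.14 ± 0.06 missed the threshold (adjusted p = 0.127). Under median centring it was -0.14, against a median of -0.21 over all bright genes.

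Of 10 bright β-catenin targets, 4 were called, all higher, against 5.62% of all bright genes, and the median was 0.15. Lgr5, a further member of the list, went the other way by -0.54 ± 0.16 and missed the threshold (adjusted p = 0.0513). With single samples left out 1 to 3 targets rose and 0 to 1 fell. Under median centring, where the median of all bright genes was -0.21, the median of these targets was -0.11 and none of them was called higher, and as deposited 1 was. Vegfa, the angiogenic growth factor, which is also induced by hypoxia, had 14.67, 14.84 and 14.69 on the stiff ECM, against 14.05, 14.40 and 14.13 on the soft ECM (0.54 ± 0.09, adjusted p = 0.00751). Axin2, the negative feedback gene of the pathway, had 8.64, 8.55 and 8.53 on the stiff ECM, against 8.10, 8.28 and 8.23 on the soft ECM (0.37 ± 0.10, adjusted p = 0.0429). Its mean over the 9 samples, 8.302, lay at the brightness minimum, and its soft and normal means were 8.20 and 8.16. Axin2 thus passed the filter through its stiff samples, so its call adds little to the count of 4. Cd44, the hyaluronan receptor, rose by 0.30 (adjusted p = 0.0412), and Plaur is described above. The groups did not overlap in any of the 4, as in 1214 of all 1216 called probes. Vegfa kept its call with any sample left out, Axin2 lost it with each of the 9 samples left out, and Cd44 lost it with 7 of them. The Wnt5a call held with any sample left out, and the Ror2 call was lost without stiff sample 2.

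**Figure D3:**
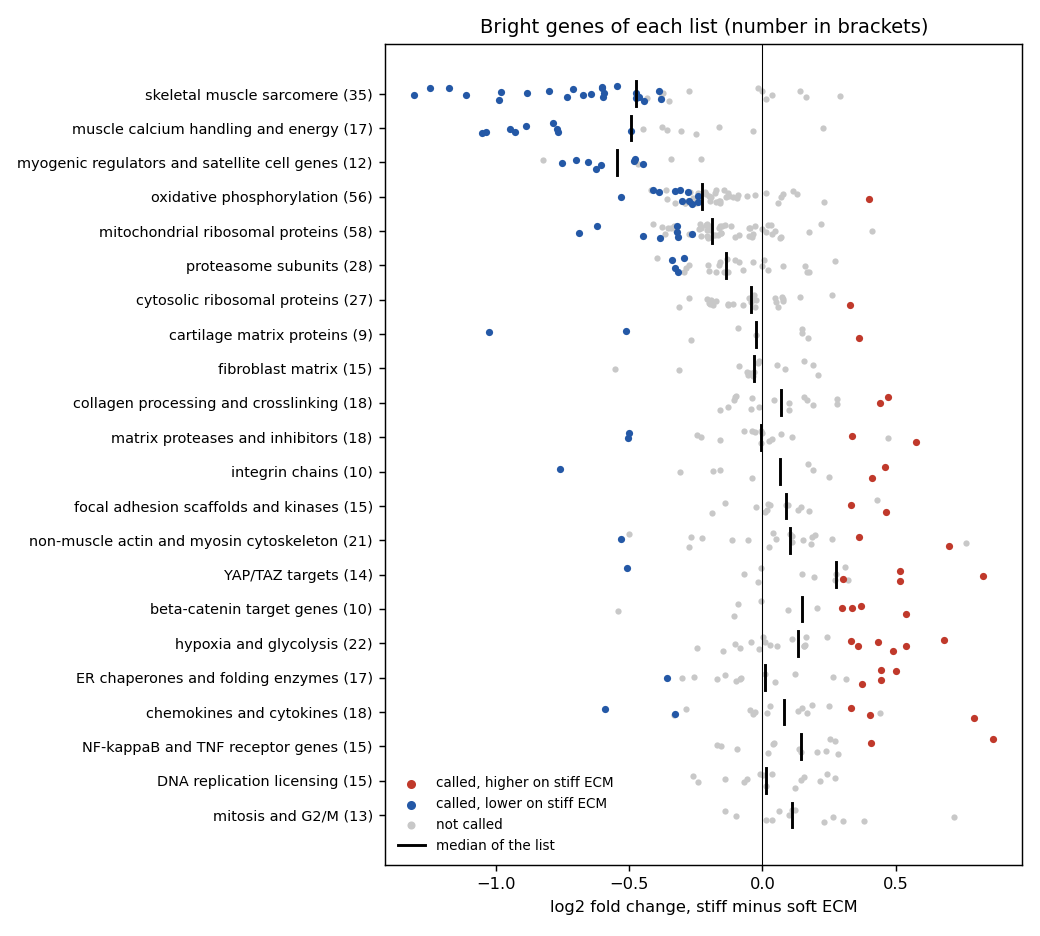
Log2 fold change, stiff minus soft ECM, of the bright genes of 22 lists, 1 point a gene, coloured where called, with a black bar at the median of each list. The 3 muscle lists have medians from -0.54 to -0.47, the oxidative phosphorylation list -0.23 and the YAP and TAZ targets 0.28.

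Mitochondrial genes leaned downwards by small amounts. Of 56 bright oxidative phosphorylation genes, 48 had a difference below 0, 11 fell and 1 rose, and the median was -0.23. Of all 9114 bright genes, 4830 had a difference below 0 and 6.09% fell. Ndufa5, a subunit of complex I, had 13.81, 13.76 and 13.87 on the stiff ECM, against 14.33, 14.13 and 14.15 on the soft ECM (-0.39 ± 0.07, adjusted p = 0.00866). Uqcrq of complex III fell by 0.26, and Atp5a1, the α subunit of ATP synthase, rose by 0.40. Of 58 bright mitochondrial ribosomal proteins, 8 were called, all lower, with a median of -0.19, and Mrpl48, Mrpl4 and Mrpl33 fell (log2 fold changes -0.69, -0.62 and -0.45). Of 28 bright proteasome subunits, 4 were called, all lower, with a median of -0.14. They were Psmd13 of the regulatory lid, which fell by 0.34, and Psma7, Psmb5 and Psma4 of the core, which fell (log2 fold changes -0.33, -0.32 and -0.29). The cytosolic ribosomal proteins, 27 bright, had a median of -0.04 and 1 call, Rpl5, which rose by 0.33.

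The calls in these lists depended on the samples and on the scaling. With 1 sample left out, 1 to 10 oxidative phosphorylation genes and 3 to 8 mitochondrial ribosomal genes fell, the lowest in each being without stiff sample 2. Ndufa5, Mrpl48, Mrpl4, Mrpl33 and Psmd13 kept their calls throughout, and Uqcrq, Psma7, Psmb5, Atp5a1 and Rpl5 lost theirs without stiff sample 2, all but Atp5a1 also without other samples. As deposited, the medians of the oxidative phosphorylation, mitochondrial ribosomal and proteasome lists were -0.24, -0.20 and -0.17, and 2, 3 and 1 of their genes fell. Under median centring the medians were -0.48, -0.44 and -0.42, against -0.21 over all bright genes, and 44, 33 and 17 fell.

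Of 22 bright hypoxia and glycolysis genes, 6 were called, all higher, against 5.62% of all bright genes. The list median was 0.13. Under median centring it was -0.13, against -0.21 over all bright genes. Beside Vegfa, Pdk1, the kinase that keeps pyruvate out of the mitochondrion, had 10.20, 10.34 and 10.41 on the stiff ECM, against 9.64, 9.86 and 9.40 on the soft ECM (0.68 ± 0.14, adjusted p = 0.0135), and Ero1a, an oxidase of the ER, rose by 0.49. With single samples left out 1 to 6 genes rose, and Pdk1 and Ero1a lost their calls without stiff sample 2. Of 17 bright ER folding genes, 4 rose and 1, Herpud1, fell by 0.36. Canx, or calnexin, rose by 0.44, Dnajc3 by 0.50, Hspa5, or BiP, by 0.44 and Hsp90b1, or GRP94, by 0.37, but the calls of all 4 were lost without stiff sample 2. Cryab, αB-crystallin, a small heat shock protein that muscle makes in quantity, fell by 0.41, Hspe1, the mitochondrial co-chaperonin, fell by 0.34, and Hsp90aa1 rose by 0.29. Slc38a2, a neutral amino acid transporter, rose by 0.37 and was the single call among 15 bright genes of amino acid synthesis and transport. The calls of Hspe1 and Slc38a2 were lost without stiff sample 2. Of 16 bright cholesterol genes, Ebp and Mvd fell (log2 fold changes -0.60 and -0.57) and Lss rose by 0.60. All 3 code for enzymes of the same pathway, and Ebp alone of them kept its call with any sample left out.

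Inflammatory genes went both ways. Of 18 bright chemokines and related genes, 3 rose and 2 fell. Ptgs2, the inducible cyclooxygenase, had 13.51, 13.46 and 13.35 on the stiff ECM, against 12.12, 13.00 and 12.82 on the soft ECM (0.80 ± 0.18, adjusted p = 0.0226), and it was 0.53 without soft sample 1. Cxcl5 and Cxcl1, both neutrophil attractants, rose by 0.40 and 0.33, and Cx3cl1 fell by 0.33. Ccl3, a macrophage chemokine, had 10.95, 11.04 and 10.99 on the stiff ECM, against 11.80, 11.49 and 11.46 on the soft ECM (-0.59 ± 0.11, adjusted p = 0.0112), a fall whose call held with any sample left out. Ltbr, the lymphotoxin β receptor, had 10.92, 11.08 and 11.24 on the stiff ECM, against 10.36, 10.34 and 9.95 on the soft ECM (0.87 ± 0.13, adjusted p = 0.00405), and Tnfrsf11b, osteoprotegerin, rose by 0.41. The interferon genes Bst2 and Psmb8 fell (log2 fold changes -0.38 and -0.52). Of 10 bright macrophage genes of 20 listed, Lyz1, Clec7a and Itgam rose and Mpeg1 and Fcer1g fell, and the general macrophage marker Cd68 differed by 0.00 ± 0.09 with overlapping groups. Among the calls named in this group of genes, those of Ccl3 and Ltbr held with any sample left out.

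Some genes that serve as markers of other tissues were higher on the stiff ECM. Of 12 keratinocyte genes 4 were bright, and Krt19, given above, and Sprr1a rose, with a list median of 0.65. Sprr1a, a cross-linked protein of the epidermal envelope, averaged 8.84 ± 0.17 on the stiff ECM and 7.97 ± 0.39 on the soft ECM (SD, n = 3 each), with no overlap (0.87 ± 0.18, adjusted p = 0.0147). Its mean over the 9 samples, 8.38, lay near the brightness minimum, with a normal mean of 8.37 and the soft mean below the minimum. The stiff samples of Sprr1a thus helped it pass the filter. The keratins Krt14 and Krt10 had differences of 0.42 ± 0.12 and -0.13 ± 0.08, and neither passed the threshold. Of the 2 bright endothelial genes, Eng, or endoglin, a TGF-β co-receptor that mesenchymal cells also make, had 10.21, 10.48 and 10.55 on the stiff ECM, against 9.76, 9.95 and 9.69 on the soft ECM (0.61 ± 0.14, adjusted p = 0.0201), and Esam differed by 0.23 ± 0.14. The calls of Krt19, Sprr1a and Eng lay in lists of few bright genes, and those of Sprr1a and Eng were lost without stiff sample 2.

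The remaining bright defining markers were not called. Of the chondrocyte markers, Comp differed by -0.03, Hapln1 by 0.17 and Col11a1 by 0.48 ± 0.18 (adjusted p = 0.0942). Of the fibroblast markers, Col3a1 differed by -0.03, Pdgfra by -0.03, Dcn by -0.09 and Lum by 0.10. The macrophage protease gene Ctss differed by 0.18, the adipocyte genes Fabp4 and Lpl by -0.05 and -0.07, and Sp7, the osteoblast transcription factor, by -0.37 ± 0.29.

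Growth genes showed few calls. None of 15 bright replication licensing genes was called by limma, with 1 higher and 1 lower at an unadjusted p under 0.05, and none of 13 bright mitosis genes, with 3 higher. The methods' t-test called none of either list, which adds little, as it called only 3 of all 10473 bright probes. The list medians were 0.01 and 0.11. Gadd45a and Gadd45g, which slow the cell cycle under stress, fell (log2 fold changes -0.52 and -0.51), and Trp53inp1 and Ccng1, both p53 targets, rose by 0.36 and 0.57, all with calls that single samples removed. Of 12 bright immediate early genes, Fos rose by 0.39 (adjusted p = 0.0371). Its stiff samples were 12.10, 12.20 and 12.03, its soft samples 11.76, 11.58 and 11.84 and its normal samples 11.09, 10.85 and 10.80, so both gels were above the normal group.

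The called genes differed in genomic length, a property the comparison did not use. The RefSeq table gave a span from the start to the end of the gene for 8990 of 9114 bright genes. The median span was 42.0 kb for the genes that rose, 13.4 kb for those that fell and 23.2 kb for those not called. Among 1049 genes under 5 kb, 3.24% rose and 12.3% fell. Among 1478 genes of 80 kb or more, 10.2% rose and 4.87% fell. The median log2 fold change followed the same order over 6 classes of span, from -0.10 under 5 kb to 0.06 at 80 kb or more. Without the muscle genes the medians were 42.0 kb for rises and 13.2 kb for falls.

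The stiff and soft samples did not overlap in this tilt with length. The median log2 intensity of the longest class minus that of the shortest class was -0.56, -0.59 and -0.69 on the stiff ECM, -0.89, -0.78 and -0.73 on the soft ECM and -0.65, -0.60 and -0.62 in the normal samples. The 3 soft samples were thus the lowest of the 9, and soft sample 1 was the farthest out. With each sample left out the median span of the genes that rose stayed between 34.9 and 70.7 kb and that of the genes that fell between 11.9 and 15.4 kb. The lists differed in span themselves, with a median of 7.11 kb for oxidative phosphorylation, 6.75 kb for mitochondrial ribosomal proteins and 15.2 kb for the 64 bright muscle genes, against 24.9 kb for the YAP and TAZ targets. The RNA was amplified before hybridisation and its integrity was measured, but no source used here gives the integrity of single samples, and its part in the tilt was not tested.

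**Figure D4:**
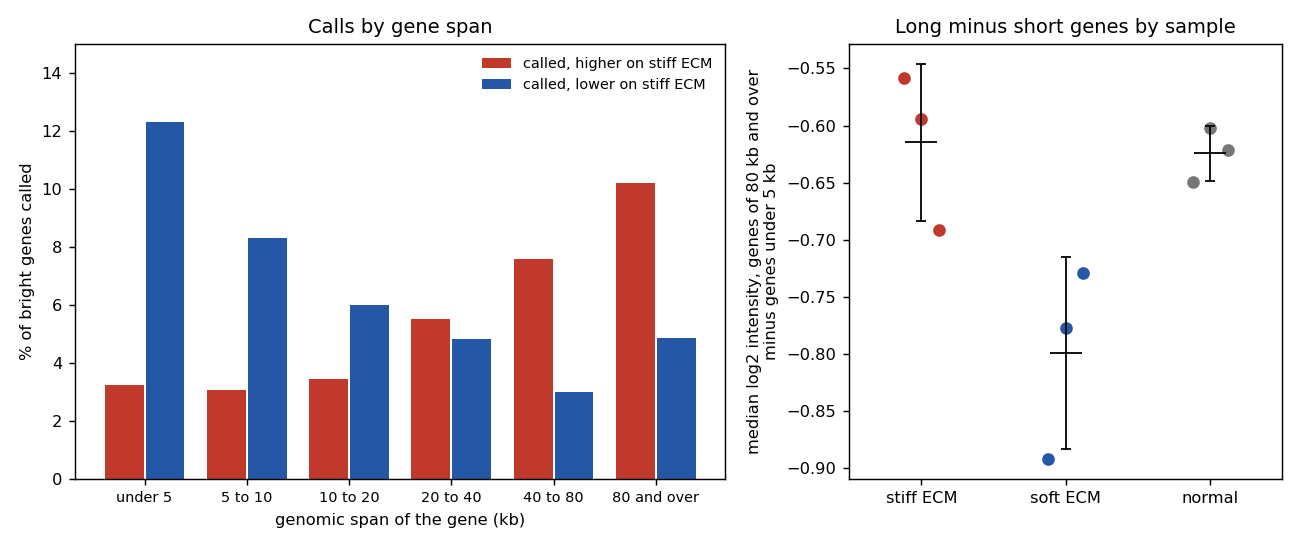
Left, the share of bright genes called higher or lower on stiff ECM in 6 classes of genomic span in kb, with rises at 10.2% in the longest class and falls at 12.3% in the shortest. Right, the median log2 intensity of genes of 80 kb and over minus that of genes under 5 kb in each sample, with mean and SD of 3 samples, in which the 3 soft samples lie below all others.

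Set against the normal samples, the calls divided by direction. Of 589 probes that rose, the normal mean was between the gels in 379, below both in 167 and above both in 43. Of 627 that fell, it was between in 402, above both in 188 and below both in 37. Over all bright probes the 3 positions were about equally common, at 3447 between, 3488 below and 3538 above. The normal samples entered the fit, so this is a description.

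Different bright probes of a gene with a call mostly had the same sign but were seldom all called. For named genes with several bright probes, such as Lox, Loxl4, Rdx and Tpm1, only the brightest probe is given above. Of 747 genes with several bright probes, 148 had at least 1 called probe. In 106 of these all bright probes had the same sign, in 25 all were called the same way, and in 1, Cox7a2, a subunit of cytochrome c oxidase, 1 probe rose and another fell.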

How the data were processed

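RNA from 9 chondrocyte samples, 3 on stiff ECM, 3 on soft ECM and 3 labelled normal, was amplified, labelled with Cy5 and hybridised to Phalanx Mouse OneArray v2 arrays. The deposited values were background-subtracted intensities of 26423 probes on a linear scale. Per the study's methods, the authors dropped control probes and flagged spots and used Rosetta Resolver to scale every array by its median and to combine 2 arrays for each sample.

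Here log2 intensities of the probes above 0 in all samples were quantile-normalised over the 9 samples. Probes with a mean deposited log2 intensity of 8.3 or more were fitted in limma 3.58.1 (R 4.3.3) with 3 group means and an intensity trend. The contrast was stiff minus soft ECM, and a probe was called at a Benjamini-Hochberg adjusted p under 0.05 over all bright probes. The step was tested on simulated data with independent noise in every probe. Those data hold no deviation shared by the probes of a sample, so they cannot check the calls against such deviations. The number of arrays limits the precision, and no depth applies. The error-weighted model of Rosetta Resolver could not be run without its error estimates, and the Student's t-test of the study's statistics section was run as an alternative, called the methods' t-test.

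A gene is given by its brightest probe. A single symbol was listed for 21876 probes, of which 21825 were found in the reference table, no symbol for 4547 and several for 0. The genes named were the 15 largest rises and 15 largest falls among called genes whose gels did not overlap, up to 3 called members with the smallest p of each of 49 gene lists, the genes of proteins the study measured, and cell type markers. Ccn1, Tead1, Lgr5, Psma4, Herpud1, Hsp90b1, Cxcl1, Cx3cl1, Mpeg1, Fcer1g, Ccng1 and Cox7a2 were named after their values were seen. The comparison, the lists and the rule were chosen with earlier results of these data known. Lists are described by counts and medians, with no list test. Gene spans and promoter windows came from RefSeq tables of build GRCm38.p6. Plots were made with matplotlib 3.10.9 under Python 3.11.15.

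The alternatives were the deposited scale, median centring, cyclic loess, quantile normalisation of bright probes only, an offset of 50, other brightness minimums, a fit over the whole table, the 2 gels only, no trend, sample weights, the methods' t-test, a replicate block, 1 probe per gene and each sample left out. Leaving out soft sample 3 with stiff sample 1 was added after seeing the data.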

Additional observations from a re-analysis of the deposited data

How the results depend on the processing

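The number of bright probes called, 1216, was 638 with the values as deposited (170 lower), 2180 with median centring (142 higher and 2038 lower), 788 in the whole-table fit (358 higher), 615 with the 2 gels only (286 higher and 329 lower) and 3008 with sample weights (1392 higher and 1616 lower). The sample weights ran from 0.41 for soft sample 1 and 0.43 for stiff sample 3 to 3.19 for stiff sample 2, so this count leans on few samples. The methods' t-test called 3 (1 higher and 2 lower) after adjustment and 2412 at an unadjusted p under 0.05. Leaving out each sample gave 261 to 1167 calls, 95 to 615 of them higher and 166 to 571 lower, with the lowest counts without stiff sample 2. Leaving out soft sample 3 and stiff sample 1 together, chosen after seeing the data, gave 523 (260 higher and 263 lower). Loess, quantile normalisation of bright probes only, the offset, the other brightness minimums, brightness by the gel samples, no trend and 1 probe per gene kept the count between 954 and 1418. Of the probes called in the comparison, 565 were also called with the values as deposited. None of the 112 called genes named by the rule reversed its direction in these alternatives.

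The replicate numbers of the labels showed no pairing of stiff with soft samples. Same-numbered stiff and soft samples deviated from their group means with r = -0.20, -0.03 and -0.34. For soft and normal samples r was 0.04, 0.20 and 0.44, and for stiff and normal samples 0.29, -0.09 and -0.21. The deviations add to 0 within each group of 3, so these r values cannot settle whether the numbers mark a shared batch. With the replicate block 963 probes were called, 494 higher and 469 lower.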

Other observations

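The 8 bright probes with a sample more than 4 log2 units from the median of all 9 were not called, and they include the largest raw differences of the comparison. Sdf2, an ER protein, had 0.96 in stiff sample 3 against 12.46 to 12.97 in the other 8 samples. C1qtnf3, a secreted cartilage protein also known as CORS26, had 1.02 in stiff sample 1 against 10.14 to 11.61 in the others, and Pdgfa, a platelet-derived growth factor chain, had 7.09 in stiff sample 2 against 11.94 to 12.36. Pelp1 was low in stiff sample 3, Tmem208 in soft sample 3 and 9130019O22Rik in soft sample 2, and a probe with no gene symbol was low in stiff sample 2. Arhgef2, a RhoA activator bound to microtubules, was far below the others in 3 samples, soft samples 1 and 2 and normal sample 1. These genes were chosen after their values were seen, and no cause was tested.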
